A study of Mus musculus with 16 samples.

Results

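The BMP (bone morphogenetic protein) pathway and Id genes are 10 mouse genes: the ligand genes Bmp4 and Bmp7, the receptor genes Bmpr1a and Bmpr2, the signal transducer genes Smad1 and Smad5, the inhibitory SMAD gene Smad6, and the response genes Id1, Id2 and Id3. They were given by name, with earlier results of these data known but no cut on measured values, and were found by matching Ensembl identifiers to mouse gene symbols. All 10 were among the 23306 genes of the deposited table. A gene was tested if it reached a normalized read count of 10 in at least 4 libraries, which 16509 genes did. Of the 10 genes, 9 passed, and Bmp7 was too low to be tested.

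BMP ligands are secreted dimers that bring together type II receptors such as BMPR2 and type I receptors such as BMPR1A. The active type I receptor phosphorylates SMAD1, SMAD5 and SMAD9, which enter the nucleus with SMAD4 and act on target genes, the Id genes among them. In the uterus, BMP signalling is known for its part in embryo implantation and in the response of the stroma to progesterone.

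RNA was sequenced from organoids of mouse endometrium that the labels describe as epithelial, in 16 libraries of 4 groups with 4 libraries each. Tgfbr2 conditional knockout (cKO) organoids, labelled Tgfbr2 PRcre+, were given E2/MPA (M13 to M16), and control organoids, labelled Tgfbr2 FF, were given E2/MPA (M9 to M12). The remaining groups were cKO organoids under vehicle (M5 to M8) and control organoids under vehicle (M1 to M4). Tgfbr2 encodes the type II receptor of TGF-beta, a separate branch of the same ligand superfamily, and PRcre is a Cre recombinase expressed under the control of the progesterone receptor gene. E2/MPA stood for 2 days of 10 nM estradiol (E2) and then 4 days of E2 at the same dose together with the synthetic progestin medroxyprogesterone acetate (MPA) at 1 µM. Vehicle was applied for 6 days, and treatment began in every group after 2 days in culture. The age of the mice is not given in the labels, nor is it stated there whether different libraries represent different animals.

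Recovered depth was 14372111 to 20016836 reads per library. The targeted gene Tgfbr2 averaged 4326 ± 850 normalized counts in cKO and 5356 ± 1685 in control organoids under E2/MPA, and 4325 ± 811 in cKO and 6014 ± 1467 in control organoids under vehicle (SD, n = 4 each). Neither genotype difference passed the test (adjusted p = 0.690 under E2/MPA and 0.833 under vehicle). As the counts cover the whole gene and the deleted exons are not named in the labels, this is no check of the genotypes. Pgr, the progesterone receptor gene, fell under E2/MPA by 0.99 on the log2 scale in cKO (adjusted p = 0.0085) and by 1.44 in control organoids (adjusted p = 3.8e-04). Under vehicle Pgr averaged 3217 ± 277 in cKO and 5134 ± 1296 in control organoids. That genotype difference, -0.64, did not pass (adjusted p = 0.779), but it passed without M4, M8, M12 and M16 (adjusted p = 0.00131). Only the cKO organoids are labelled with PRcre, and its part in the genotype differences was not tested. All 10 epithelial marker genes listed, such as Epcam and Krt8, were read in every library, with a mean of 13.42 to 13.94 on the log2(value + 1) scale. The 12 stromal fibroblast markers, all in the table, averaged 4.47 to 10.22. M16, M12, M8 and M4 had the highest stromal mean of their groups (9.85, 10.22, 9.12 and 10.10) and are called stroma-rich here. M9 (8.79) and M1 (7.93), both control organoids, came next and are not counted among them. The summed stromal level was 2660 to 38000 in cKO and 1800 to 44500 in control organoids under E2/MPA, and 1890 to 23400 in cKO and 932 to 55800 in control organoids under vehicle. Of these markers, Hand2 was at 0 in 6 libraries, Postn in 3, Lum in 2 and Thy1 in 1, none of them stroma-rich. Fewer cells of a type and less RNA per cell cannot be told apart in such bulk samples.

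The promoters of genes that the results below turn on are shown to place them beside their levels. Each run is the 250 bases before the transcription start, 5′ to 3′ on the gene's strand, from RefSeq promoters of build GRCm38.p6, an earlier build than the GRCm39 named for the deposited table. Capitals mark 3 short motifs, searched on both strands. GGCGCC, which reads the same on both strands, is a GC-rich element bound by BMP-responsive SMADs, CAGAC is the SMAD box, and AGAACA is a half-site of the steroid receptor class that includes the progesterone receptor. Chrd, a BMP antagonist gene outside the 10, is included because it had the largest average rise under E2/MPA among the pathway genes that passed.

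Id2 promoter (chr12:25096093-25096342, minus strand): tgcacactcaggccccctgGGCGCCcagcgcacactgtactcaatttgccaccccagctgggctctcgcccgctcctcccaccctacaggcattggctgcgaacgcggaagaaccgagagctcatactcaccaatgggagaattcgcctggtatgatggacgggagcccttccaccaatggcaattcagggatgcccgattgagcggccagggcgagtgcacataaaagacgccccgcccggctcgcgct

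Id3 promoter (chr4:136143572-136143821, plus strand): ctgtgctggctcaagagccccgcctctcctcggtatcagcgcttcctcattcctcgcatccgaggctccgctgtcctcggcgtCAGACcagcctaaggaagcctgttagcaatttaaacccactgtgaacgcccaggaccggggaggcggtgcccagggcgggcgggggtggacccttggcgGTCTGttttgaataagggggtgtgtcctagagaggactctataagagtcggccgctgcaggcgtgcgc

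Smad6 promoter (chr9:64022060-64022309, minus strand): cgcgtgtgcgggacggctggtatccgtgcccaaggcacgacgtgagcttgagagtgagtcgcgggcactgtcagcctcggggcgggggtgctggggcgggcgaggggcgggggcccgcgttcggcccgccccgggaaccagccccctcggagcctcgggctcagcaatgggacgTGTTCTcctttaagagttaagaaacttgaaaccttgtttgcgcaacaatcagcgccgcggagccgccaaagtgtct

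Chrd promoter (chr16:20732877-20733126, plus strand): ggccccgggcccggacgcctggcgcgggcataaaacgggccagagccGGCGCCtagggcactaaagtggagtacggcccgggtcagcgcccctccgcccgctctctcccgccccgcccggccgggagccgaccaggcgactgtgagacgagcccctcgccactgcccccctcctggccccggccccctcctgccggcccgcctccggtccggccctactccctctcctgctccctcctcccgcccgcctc

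GGCGCC began 231 bases before the start of Id2 and 203 bases before that of Chrd. Id3 held CAGAC at 167 bases before the start and, on the other strand, at 68 bases. Smad6 held AGAACA on the other strand at 76 bases. Among the 10 genes, 8 matched the RefSeq table, and Id1 and Bmp7 did not. Of those 8, GGCGCC was found in a promoter of 4 (Bmpr1a, Bmpr2, Smad5 and Id2), CAGAC in 2 (Smad5 and Id3) and AGAACA in 2 (Bmpr2 and Smad6). Over all 32851 promoters of the table, the share holding each motif was 9.59% for GGCGCC, 42.2% for CAGAC and 16.1% for AGAACA. Smad5 has several promoters in the table and so more chances to hold a motif. The promoters of the 8 genes were 60.0% (a Smad5 promoter) to 78.8% (Bmpr1a) G and C, against a median of 52.4% over all promoters. The part of base content in the motif counts was not tested.

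By mean level per kilobase, Bmpr1a, Smad5, Smad1 and Id2 stood highest of the 10 genes, and the ligand genes Bmp4 and Bmp7 lowest. Per kilobase of merged exon, the mean normalized count over the 16 libraries was 215 ± 18.2 for Bmpr1a, 173 ± 10.7 for Smad5, 166 ± 14.1 for Smad1, 160 ± 26.7 for Id2 and 94.2 ± 10.3 for Bmpr2 (SD over libraries). It was 72.1 ± 26.2 for Id1, 48.1 ± 11.3 for Smad6, 41.3 ± 54.0 for Id3, 5.08 ± 4.60 for Bmp4 and 1.58 ± 0.897 for Bmp7. In this order the ranges over libraries of neighbouring genes overlapped, except between Id2, whose lowest library was at 122, and Bmpr2, whose highest was at 112. The 4 highest genes were not separated from the other 6, because Id3 reached 201 and Id1 reached 137 in single libraries. Bmp4, at 15.7 in its highest library, lay below the lowest libraries of Smad6 (25.6) and Id1 (24.1), but not below that of Id3 (8.69).

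**Figure D1:**
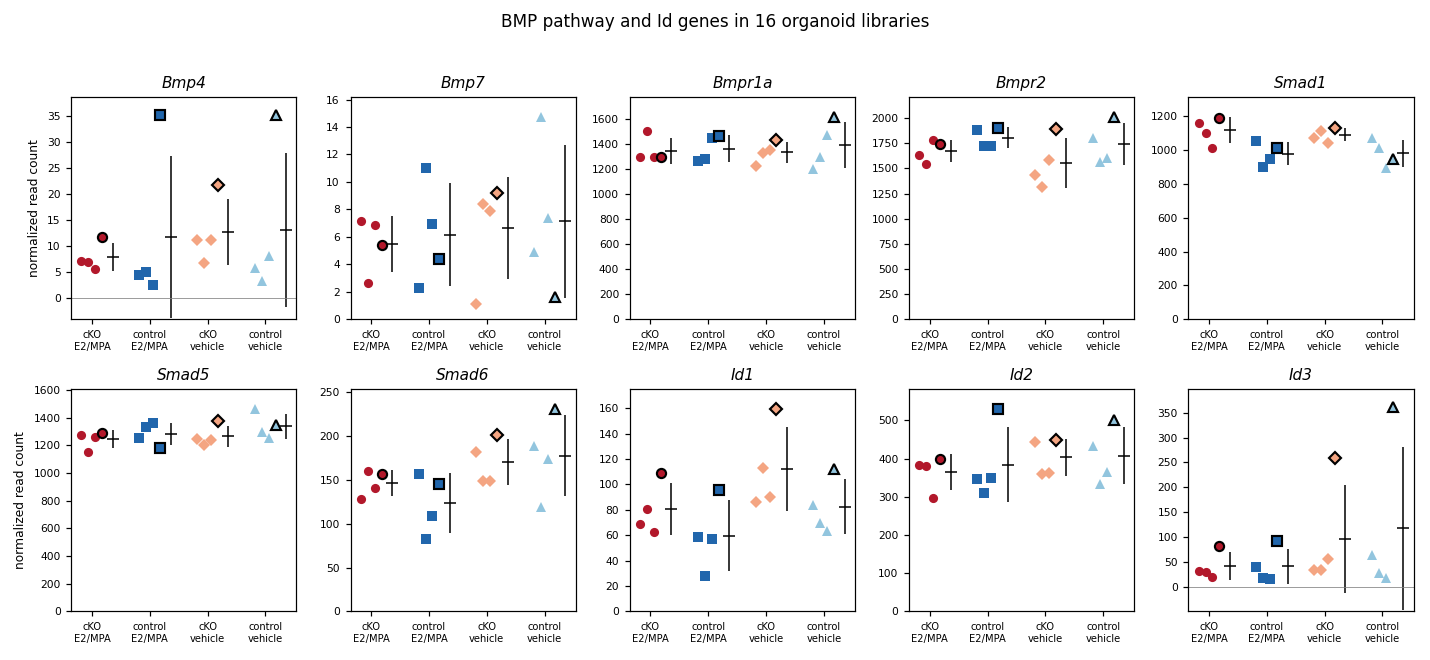
Normalized read count (vertical axis, linear, starting at or below 0) of the 10 genes in cKO E2/MPA, control E2/MPA, cKO vehicle and control vehicle organoids. Each point is a library, points with a black outline are the stroma-rich libraries M16, M12, M8 and M4, and the dash with its bar is the mean ± SD (n = 4). The groups overlap for every gene, and in Bmp4, Id1, Id2 and Id3 the outlined library is the highest of its group, up to 361 for Id3 in M4.

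Bmp4 encodes a BMP ligand that signals through BMPR1A and BMPR2. Under E2/MPA it had 7.14, 7.04, 5.70 and 11.8 normalized counts in cKO organoids, against 4.58, 5.00, 2.59 and 35.2 in control organoids. The vehicle libraries had 11.2, 6.72, 11.3 and 21.8 in cKO organoids, against 5.87, 3.39, 8.18 and 35.2 in control organoids. The highest value of each group was that of its stroma-rich library, and all groups overlapped. Bmp4 had 191 reads over all libraries, so its values rest on few reads. The E2/MPA difference averaged over genotypes was -0.43 on the log2 scale (SE 0.50, adjusted p = 0.602), with a 95% interval of 0.356 to 1.55-fold. Bmp7, another ligand of the family, was at 2.64 to 7.14 in cKO and 2.29 to 11.0 in control organoids under E2/MPA, and at 1.12 to 9.20 in cKO and 1.60 to 14.7 in control organoids under vehicle. With 103 reads over all libraries, Bmp7 lay below the level needed for a test.

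Bmpr1a, the type I receptor gene, was at 1296 to 1508 in cKO and 1267 to 1464 in control organoids under E2/MPA. Under vehicle it was at 1224 to 1434 in cKO and 1203 to 1617 in control organoids. Its average E2/MPA difference was -0.0063 (SE 0.065, adjusted p = 0.959); the 95% interval was 0.904 to 1.1-fold. Bmpr2, the type II receptor gene, was at 1539 to 1779 in cKO and 1717 to 1901 in control organoids under E2/MPA, and at 1319 to 1886 in cKO and 1561 to 2006 in control organoids under vehicle. Its average E2/MPA difference was 0.087 (SE 0.074, adjusted p = 0.457; 95% interval 0.952 to 1.18-fold). Its cKO-minus-control difference was -0.11 under E2/MPA (adjusted p = 0.767) and -0.17 under vehicle (adjusted p = 0.861).

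Smad1 encodes a SMAD that BMP type I receptors phosphorylate. Under E2/MPA it had 1158, 1102, 1012 and 1186 normalized counts in cKO organoids, against 1049, 898, 946 and 1011 in control organoids. Under vehicle it had 1070, 1113, 1043 and 1128 in cKO organoids, against 1069, 1010, 892 and 943 in control organoids. The cKO mean was above the control mean under both treatments, but the lowest cKO library lay below the highest control library each time. The cKO-minus-control difference was 0.19 under E2/MPA (SE 0.072, adjusted p = 0.343) and 0.16 under vehicle (SE 0.072, adjusted p = 0.833). Neither passed the adjusted threshold of 0.05. The stromal mean of the cKO libraries, 5.78 to 9.85 under E2/MPA and 5.25 to 9.12 under vehicle, overlapped that of the control libraries, 5.36 to 10.22 and 4.47 to 10.10. It was not balanced, as M8 and M16 in cKO but M1, M4, M9 and M12 in control organoids were above 7. The part of stromal level in the Smad1 difference was not tested. Smad5, which encodes a SMAD of the same class, was at 1149 to 1291 in cKO and 1184 to 1361 in control organoids under E2/MPA, and at 1201 to 1378 in cKO and 1250 to 1459 in control organoids under vehicle. Its average E2/MPA difference was -0.043 (SE 0.048, adjusted p = 0.591; 95% interval 0.904 to 1.04-fold).

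Smad6 encodes an inhibitory SMAD that is itself transcribed in response to BMP and dampens the pathway. Under E2/MPA it had 128, 160, 140 and 156 normalized counts in cKO organoids, against 157, 82.0, 109 and 145 in control organoids. Under vehicle the counts were 182, 148, 149 and 201 in cKO organoids, against 188, 119, 173 and 230 in control organoids. The means were lower under E2/MPA in both genotypes, 146 ± 14.6 in cKO and 123 ± 34.2 in control organoids, against 170 ± 25.9 in cKO and 178 ± 46.2 in control organoids under vehicle (SD, n = 4 each), and the groups overlapped. The E2/MPA difference was -0.21 in cKO (SE 0.21, adjusted p = 0.668), -0.53 in control organoids (SE 0.21, adjusted p = 0.144) and -0.37 averaged over genotypes (SE 0.15, adjusted p = 0.104). The control and average differences passed without M2 (-0.71, adjusted p = 0.0397, and -0.46, adjusted p = 0.0298). They also passed when libraries 8 numbers apart were joined as a random block, which the labels do not state (adjusted p = 0.0127 in control organoids and 0.00919 on average). With that block, 4479 and 6351 of all tested genes passed. Over all other settings of the analysis, Smad6 passed in 3 of 32 in control organoids and 3 of 31 on average. Its adjusted p was highest without M10, at 0.391 in control organoids and 0.199 on average.

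Id1 encodes an inhibitor of basic helix-loop-helix transcription factors and is a widely used readout of BMP signalling. Its E2/MPA libraries had 69.0, 81.0, 62.7 and 109 normalized counts in cKO organoids, against 58.4, 28.0, 57.0 and 95.7 in control organoids. The counts under vehicle were 86.4, 113, 90.3 and 159 in cKO organoids, against 84.1, 70.0, 63.0 and 112 in control organoids. M16, M12, M8 and M4 were the highest of their groups, and the groups overlapped. The E2/MPA difference was -0.47 in cKO (SE 0.32, adjusted p = 0.482), -0.54 in control organoids (SE 0.32, adjusted p = 0.321) and -0.51 averaged over genotypes (SE 0.23, adjusted p = 0.132; 95% interval 0.505 to 0.983-fold). The average difference passed without M12 (-0.64, adjusted p = 0.0370) and with the same random block (-0.51, adjusted p = 0.0149), where 6351 of all tested genes passed. It passed in 3 of 31 other settings, with an adjusted p of up to 0.241 (without M8). The cKO-minus-control difference was 0.51 under E2/MPA (SE 0.32, adjusted p = 0.600) and 0.44 under vehicle (SE 0.32, adjusted p = 0.892).

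Id2, a related gene of the Id family, had 383, 381, 297 and 400 normalized counts in cKO organoids under E2/MPA, against 346, 311, 349 and 529 in control organoids. Under vehicle it had 444, 360, 363 and 448 in cKO organoids, against 434, 333, 366 and 500 in control organoids. The stroma-rich library was again the highest of each group. The average E2/MPA difference was -0.12 (SE 0.12, adjusted p = 0.515; 95% interval 0.771 to 1.09-fold).

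Id3, which acts on the same class of transcription factors, had the largest SD relative to its mean of the 9 tested genes over all 16 libraries, though in control organoids under E2/MPA Bmp4 varied more (132% of the mean, against 85.9% for Id3). Its normalized counts under E2/MPA were 30.9, 30.8, 20.5 and 82.8 in cKO organoids, against 38.9, 18.0, 15.6 and 91.3 in control organoids. The vehicle groups had 34.8, 34.4, 55.3 and 259 in cKO organoids, against 64.5, 27.1, 18.0 and 361 in control organoids. The last library of each group, the stroma-rich one, stood far above the other 3, and the mean of 96 ± 109 in cKO and 118 ± 163 in control organoids under vehicle rested largely on it. The average E2/MPA difference was -0.85 (SE 0.62, adjusted p = 0.376), with an interval of 0.222 to 1.39-fold.

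Across the 9 tested genes, 0 passed the limma test without a block in any of the 6 comparisons. With the block, Smad6 passed in control organoids and Smad6 and Id1 on average, where 4479 and 6351 of all tested genes passed. Without the block, the share of all tested genes called for E2/MPA was 4.19% in cKO, 8.9% in control and 19.8% averaged over genotypes. It was 0.00606% for cKO against control under E2/MPA, 0% for the same under vehicle and 0% for the interaction of genotype and E2/MPA. Against these shares a count of 0 of 9 does not set the genes apart. At an unadjusted limma p under 0.05 there were 0 of 9 for E2/MPA in cKO, 1 in control (Smad6) and 2 averaged over genotypes (Smad6 and Id1). There was 1 for genotype under E2/MPA and 1 under vehicle (Smad1 in both), and 0 for the interaction. edgeR and DESeq2 on the recovered reads also called 0 of the 9 in each comparison. Over all 16509 tested genes, 3075 had an unadjusted limma p under 0.05 for E2/MPA in cKO, 3942 in control and 5499 on average. For genotype the numbers were 1794 under E2/MPA and 984 under vehicle, and for the interaction 309. For genotype under vehicle and the interaction, edgeR called 0 and 0 genes and DESeq2 called 14 and 0. No gene of the 9 had groups without overlap, against 13.8% of all tested genes for E2/MPA in cKO, 12.1% for E2/MPA in control, 6.17% for genotype under E2/MPA and 3.01% for genotype under vehicle. The median log2 difference of the 9 genes was -0.12 for E2/MPA averaged over genotypes, against -0.0024 over all tested genes. It was 0.093 for cKO against control under E2/MPA, against -0.0091 over all tested genes.

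**Figure D2:**
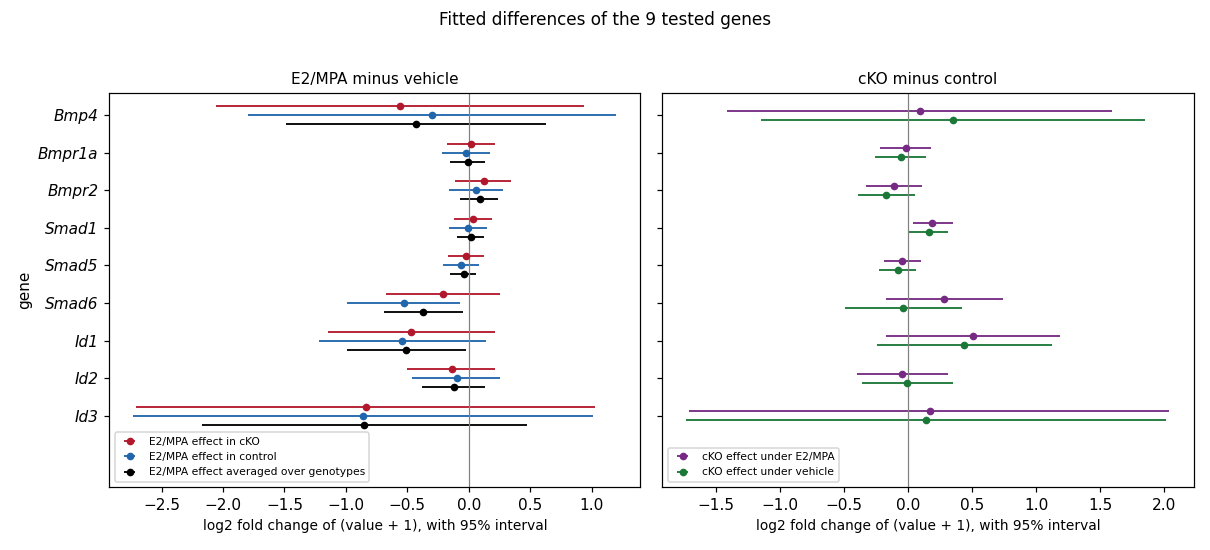
Fitted log2 fold change of (value + 1) with its 95% interval (horizontal axis) for the 9 tested genes, as E2/MPA minus vehicle (left) and cKO minus control (right); the vertical line marks no difference. Bmpr1a, Bmpr2, Smad1 and Smad5 lie close to 0 with narrow intervals, Bmp4 and Id3 have intervals more than 1 log2 unit wide on either side, and Smad6 and Id1 lie below 0 for E2/MPA, at -0.37 and -0.51 on average.

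Bmp4, Id1, Id2 and Id3 were each highest in the stroma-rich library in all 4 groups. This held for 4 of the 9 tested genes and for 12.1% of all tested genes, a measure chosen after the values were seen. It also held for 18 of the 53 other pathway genes tested (34.0%), among them Smurf1, Dlx5, Gata2, Tcf3, Tcf4 and Fst. The stroma-rich libraries were also the highest of their groups in the means of the epithelial markers (13.76 to 13.94), the smooth muscle markers (5.37 to 6.44) and the endothelial markers (up to 4.61). The macrophage marker mean was 9.90 in M12 and 9.39 in M4, and 6.10 to 7.83 in the other 14. These markers' part in the levels of the Id genes was not tested. With the stromal mean as a covariate, the E2/MPA difference averaged over genotypes passed for Id1 (-0.61, adjusted p = 0.00185), Id3 (-1.18, adjusted p = 4.49e-04) and Smad6 (-0.43, adjusted p = 0.00697). In cKO organoids it then passed for Id1 (-0.59, adjusted p = 0.0380) and Id3 (-1.22, adjusted p = 0.0103), and in control organoids for Id1 (-0.63, adjusted p = 0.0198), Id3 (-1.14, adjusted p = 0.0109) and Smad6 (-0.58, adjusted p = 0.0131). Of all 16509 tested genes, 2881 passed with this covariate in cKO, 4079 in control organoids and 5815 on average. Beside these numbers the calls do not set the members apart. Without the 4 stroma-rich libraries none of the members tested passed, and the average difference was -0.55 for Id1 (adjusted p = 0.0551), -0.53 for Id3 (adjusted p = 0.270) and -0.32 for Smad6 (adjusted p = 0.190). Over all genes, 982 passed without these libraries in cKO, 2234 in control organoids and 3705 on average. Bmp4 was then too low to be tested.

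**Figure D3:**
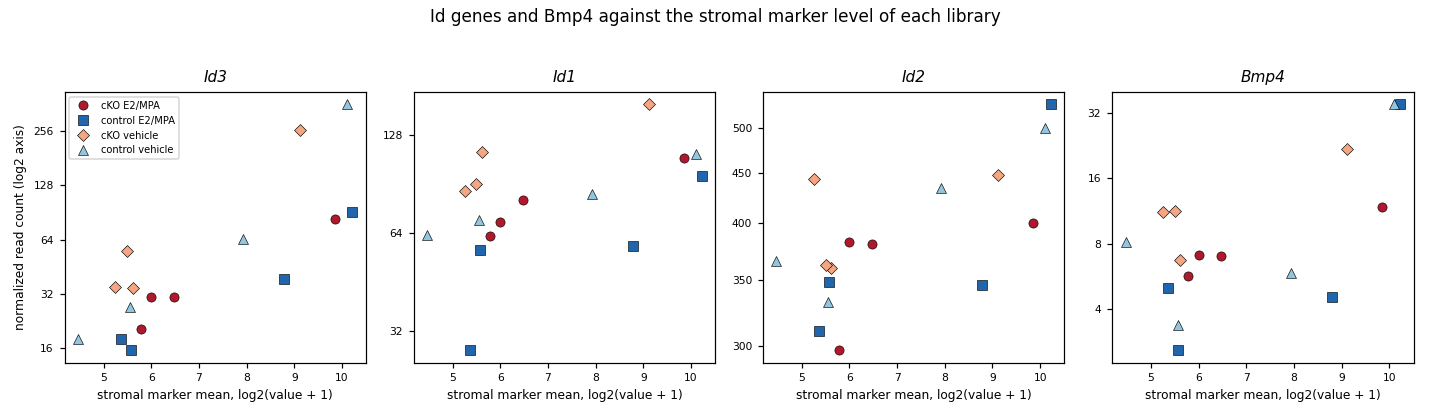
Normalized read count (vertical axis, log scale) of Id3, Id1, Id2 and Bmp4 against the mean log2(value + 1) of 12 stromal fibroblast markers (horizontal axis) in each of the 16 libraries, coloured by group. The libraries at stromal means of 9.12 to 10.22 hold the highest Id3 and Bmp4 values, and at similar stromal means Id3 is at 82.8 and 91.3 under E2/MPA, against 259 and 361 under vehicle.

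Among the stroma-rich libraries, Id3 was at 82.8 in M16 and 91.3 in M12 under E2/MPA, against 259 in M8 and 361 in M4 under vehicle. Id1 was at 109 in M16 and 95.7 in M12, against 159 in M8 and 112 in M4. With 1 such library per group there is no test of this difference. The control libraries next in stromal mean were M9 under E2/MPA (8.79) and M1 under vehicle (7.93). Id3 was at 38.9 in M9 and 64.5 in M1, and Id1 at 58.4 and 84.1.

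Over the 16 libraries, the levels most like that of Id1 were those of Usp27x (Pearson r = 0.911), Midn (0.907), Sh3tc1 (0.907), Dctn4 (0.903) and Rap2b (0.903), out of 11045 genes with a mean of at least 50 and a name that is no predicted model. The same measure was 0.769 for Smad6, 0.749 for Id3, 0.662 for Id2, 0.638 for Bmp4 and 0.590 for Smad1. For the remaining members it was 0.284 (Bmpr1a), 0.0252 (Bmpr2), -0.0381 (Smad5) and -0.218 (Bmp7). Counting Id1 itself, 522 tested genes had a higher value than Smad6, 678 than Id3, 1450 than Id2, 1685 than Bmp4 and 2185 than Smad1. The libraries share groups, depth and stromal level, so these values describe the table and carry no test.

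The other genes of the pathway came from 6 lists of 73 genes, of which 60 were in the table and 53 were tested. Averaged over genotypes, the largest rises that passed were those of Chrd, Tbx2 and Tll1, and the largest falls those of Bmp2 and Fst. Over all lists, 2 genes rose and 0 fell in cKO organoids (3.77% and 0% of 53, against 2.71% and 1.48% of all tested genes). In control organoids 5 rose and 3 fell (9.43% and 5.66%, against 5.39% and 3.51%). Averaged over genotypes 9 rose and 10 fell (17.0% and 18.9%, against 10.8% and 9.03%). For genotype under E2/MPA, genotype under vehicle and the interaction, 0 passed the limma test, with 12, 4 and 2 at an unadjusted p under 0.05. edgeR called 0 in each, and DESeq2 called 3, 0 and 0. Over all 16509 tested genes, 1794, 984 and 309 had an unadjusted limma p under 0.05, and DESeq2 called 185, 14 and 0. The lists were drawn up with earlier results of these data known, and these shares carry no test.

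Chrd encodes chordin, which binds BMPs outside the cell and keeps them from their receptors. The E2/MPA libraries had 307, 228, 442 and 189 normalized counts in cKO organoids, against 320, 510, 478 and 181 in control organoids. Vehicle libraries had 66.2, 51.2, 74.5 and 76.1 in cKO organoids, against 73.3, 47.4, 57.3 and 44.0 in control organoids. Every E2/MPA library lay above every vehicle library. Chrd rose by 2.05 in cKO (SE 0.31, adjusted p = 0.00206) and by 2.64 in control organoids (SE 0.31, adjusted p = 1.66e-04). The interaction was -0.60 (SE 0.45, adjusted p = 1.00).

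Tll1 encodes a tolloid-like protease, a class that cuts chordin and frees the BMP it holds. In E2/MPA libraries it had 720, 230, 560 and 548 normalized counts in cKO organoids, against 418, 180, 261 and 342 in control organoids. In vehicle libraries the counts were 83, 81.5, 142 and 122 in cKO organoids, against 117, 84.7, 156 and 124 in control organoids. Every E2/MPA library was again above every vehicle library. Tll1 rose by 2.18 in cKO (SE 0.34, adjusted p = 0.00213) and by 1.27 in control organoids (SE 0.34, adjusted p = 0.0291). The control call was lost without M1, M2, M4, M9 or M11 (adjusted p = 0.0514 to 0.0835).

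Bambi encodes a membrane protein that resembles a type I receptor without a kinase domain and dampens BMP and TGF-beta signalling. Under E2/MPA it had 45.2, 72.2, 66.1 and 57.0 normalized counts in cKO organoids, against 110, 171, 131 and 112 in control organoids. In the vehicle groups the counts were 42.6, 30.2, 26.0 and 35.1 in cKO organoids, against 12.7, 47.4, 37.6 and 41.6 in control organoids. Under E2/MPA every cKO library was below every control library, but the genotype difference did not pass the test (-1.11, SE 0.33, adjusted p = 0.246). Such a separation by genotype under E2/MPA held for 6.17% of all tested genes. Of the other listed genes it also held for Twsg1, Nbl1, Bmp8b, Ppm1a, Grem1 and Unc5b (cKO higher) and for Fst (cKO lower). Under vehicle it held for Nbl1 (cKO higher) and Fstl3 (cKO lower), and for 3.01% of all tested genes. Apart from Twsg1, these genes were named after their values were seen, as the naming rule left them out. Bambi rose by 2.01 in control organoids (SE 0.33, adjusted p = 0.00186). In cKO organoids the difference was 0.83 (SE 0.33, adjusted p = 0.188). The difference between the responses was -1.18 (SE 0.47, adjusted p = 1.00) and did not pass.

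**Figure D4:**
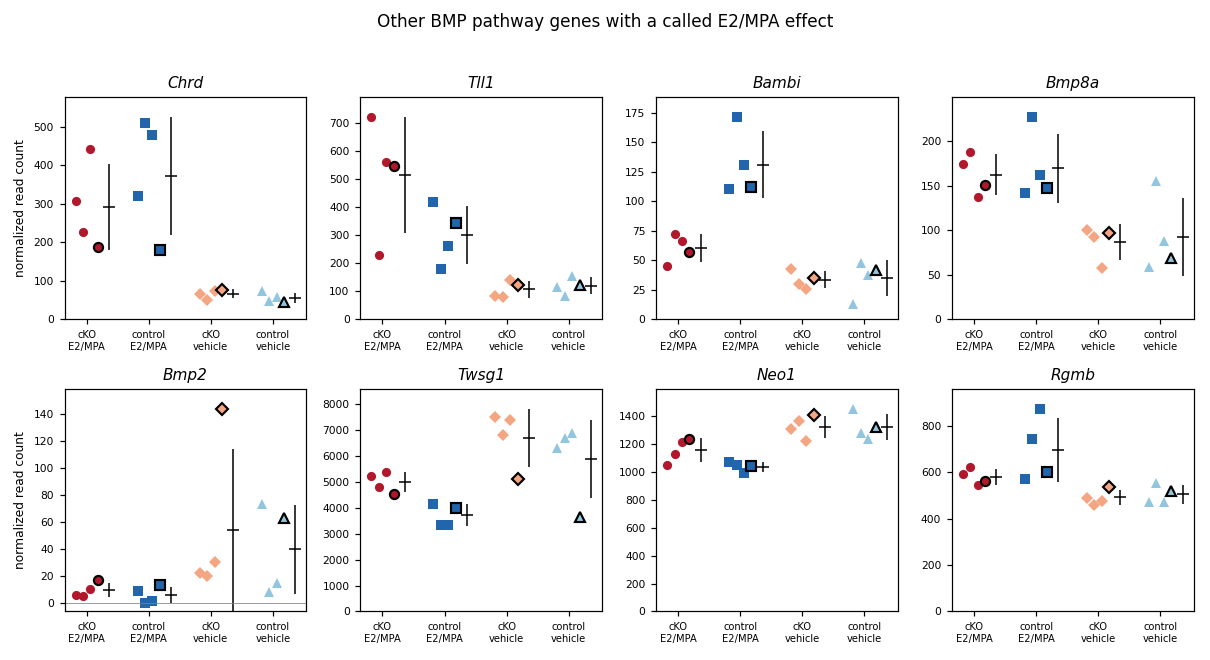
Normalized read count (vertical axis, linear) of 8 other BMP pathway genes in cKO E2/MPA, control E2/MPA, cKO vehicle and control vehicle organoids. Points are libraries, outlined for the stroma-rich ones, and the dash with its bar is the mean ± SD (n = 4). Chrd, Tll1 and Bambi are higher in every E2/MPA library than in every vehicle library of the same genotype, and for Bmp2 the vehicle libraries spread up to 144 in M8.

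Twsg1 encodes a further extracellular protein that binds BMPs. Twsg1 averaged 4984 ± 381 in cKO and 3705 ± 424 in control organoids under E2/MPA, against 6685 ± 1100 in cKO and 5874 ± 1514 in control organoids under vehicle. It fell by 0.52 averaged over genotypes (SE 0.13, adjusted p = 0.00999). Fst, the follistatin gene, also fell on average by 1.76 (SE 0.50, adjusted p = 0.0234), with its stroma-rich library the highest of every group. It was named after its values were seen, as the naming rule left it out.

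Among the other ligands, Bmp2 had 5.95, 5.28, 10.3 and 17.2 normalized counts in cKO and 9.16, 0, 1.73 and 13.2 in control organoids under E2/MPA. Under vehicle it had 22.4, 20.2, 30.5 and 144 in cKO and 73.3, 7.90, 14.7 and 63.2 in control organoids. Every cKO E2/MPA library was below every cKO vehicle library, and the control groups overlapped. Bmp2 fell by 2.34 averaged over genotypes (SE 0.63, adjusted p = 0.0177), while the difference was -2.00 in cKO (adjusted p = 0.244) and -2.68 in control organoids (adjusted p = 0.0765). Bmp8a averaged 163 ± 23.3 in cKO and 170 ± 39.0 in control organoids under E2/MPA, against 87.0 ± 19.9 in cKO and 92.7 ± 43.7 in control organoids under vehicle. It rose by 0.93 averaged over genotypes (SE 0.19, adjusted p = 0.0034).

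Among the receptors and co-receptors, Neo1, whose product neogenin binds the RGM co-receptors of BMPs, fell by 0.35 in control organoids (adjusted p = 0.00638) and by 0.27 on average (adjusted p = 0.00147). Rgmb, a gene of such a co-receptor, rose by 0.34 on average (SE 0.081, adjusted p = 0.00831). Acvr2a, a type II receptor gene that BMPs share with activins, rose by 0.28 on average (adjusted p = 0.0494). Among regulators inside the cell, Tob1 rose on average by 0.21 (adjusted p = 0.0169), Smurf1, a ubiquitin ligase gene, fell by 0.42 (adjusted p = 0.0297) and was highest in the stroma-rich library of every group, and Skil, a gene of a SMAD-binding repressor, fell by 0.34 (adjusted p = 0.0356).

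Among 9 tested BMP target genes outside the 10, the transcription factor genes Gata2 and Tbx2 rose on average by 0.26 (adjusted p = 0.0193) and 2.13 (adjusted p = 0.0344), and Dlx5 fell by 0.40 (adjusted p = 0.0129). Gata2 and Dlx5 were highest in the stroma-rich library of every group. Tbx2 was low, at 26.3 ± 16.0 in cKO and 42.3 ± 39.0 in control organoids under E2/MPA, against 6.04 ± 5.00 in cKO and 7.34 ± 6.02 in control organoids under vehicle. Of the 3 E protein genes, whose products pair with other helix-loop-helix factors and are bound by ID proteins, Tcf3 fell on average by 0.44 (adjusted p = 0.0157) and Tcf4 fell by 0.66 (adjusted p = 0.0184). Both were highest in the stroma-rich library of every group. Tcf4 averaged 876 ± 156 in cKO and 845 ± 211 in control organoids under E2/MPA, against 1301 ± 318 in cKO and 1470 ± 558 in control organoids under vehicle.

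Several calls were lost when a single library was left out. Averaged over genotypes, the calls of Bmp8a, Rgmb and Twsg1 held in each of the 31 other settings that gave an average. In control organoids the call was lost for Bmp8a without M1, M3, M4, M5, M6, M9, M10, M11, M13, M14 or M15 (adjusted p = 0.0501 to 0.139). It was lost for Rgmb without M1, M3, M10 or M11 (adjusted p = 0.0599 to 0.0845) and for Twsg1 without M1, M2, M3, M6, M7, M9, M10, M11, M13, M14 or M15 (adjusted p = 0.0501 to 0.123). Leaving out any cKO library named here left the control difference at 0.94 for Bmp8a and -0.63 for Twsg1. For the average over genotypes the call of Acvr2a was lost without any single library other than M2, M6, M12 or M16 (adjusted p = 0.0591 to 0.104). The Skil call was lost without M1, M4, M7, M8, M10, M11, M13, M14 or M15 (adjusted p = 0.0560 to 0.0769) and that of Smurf1 without M1, M4, M8, M10, M11, M14 or M15 (adjusted p = 0.0555 to 0.0657). The Tbx2 call was lost without M1, M4, M5, M8, M10, M11, M13, M14 or M15 (adjusted p = 0.0521 to 0.0751). The Gata2 call was lost with quantile normalization (adjusted p = 0.0517) and that of Tob1 without the 4 stroma-rich libraries (adjusted p = 0.0825). In control organoids that setting also ended the calls of Bmp8a (adjusted p = 0.0965) and Tll1 (adjusted p = 0.0809). With only the groups compared in the fit, the control calls of Bmp8a, Rgmb, Tll1 and Twsg1 had adjusted p = 0.141, 0.133, 0.0537 and 0.144. With edgeR, Bmp8a in control organoids (adjusted p = 0.0608) and Acvr2a on average (adjusted p = 0.0504) did not pass.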

How the data were processed

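HISAT2, featureCounts, DESeq2 and build GRCm39 are named, per the submitters' processing notes, with no versions or order. How strand was treated in counting was not found in those notes or the labels. The single table that the authors deposited holds a signal, namely reads per gene scaled by each library's size factor. Undoing that scaling, 100% of the values gave whole reads within 0.01 read, and 14372111 to 20016836 reads per library were recovered. Symbols came from GENCODE M21 by Ensembl identifier for 22484 of 23306 genes (822 had none). Counting error alone was smaller than the differences between replicates (smallest chi-square per degree of freedom 7.7). As nothing says that replicates are separate animals, p-values reflect how far these samples spread, possibly for technical reasons.

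Tests used log2(value + 1), on which changes of low genes appear smaller. The 16509 genes that reached 10 in 4 or more libraries were fitted together over the 16 libraries with limma 3.58.1 in R 4.3.3, with a mean per group, a mean-variance trend, two-sided tests, Benjamini-Hochberg adjustment over all tested genes and a threshold of 0.05. Unless a tool is named, p-values come from it. On simulated data it found 28% of 1.5-fold changes for E2/MPA in cKO, 52% in control and 52% on average. For 2-fold changes these shares were 78%, 72% and 88%. It found 40% of 1.5-fold changes for genotype under E2/MPA, 36% under vehicle and 16% for the interaction. Small changes can therefore be missed. edgeR (4.0.16) and DESeq2 (1.42.0) on the recovered reads were alternatives, in 32 settings in all. Levels per kilobase divide by the merged exon length of GENCODE M21. The members and lists were chosen with earlier results of these data known. Named are all 10 members, up to 4 passing genes per pathway list with the lowest p (the 2 highest where fewer than 2 passed), Tgfbr2, Pgr and the 5 genes most like Id1. A gene that this rule names is not reported here.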

Additional observations from a re-analysis of the deposited data

Results flagged for a closer look

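In 11 of 120 groups of 4 libraries examined, a library stood apart from the other 3 by Dixon's criterion, which chance alone meets in about 1 group in 20. Of the 40 groups of the 10 BMP pathway and Id genes, 7 did so. Id3 was high in M16 under E2/MPA in cKO organoids (82.8 normalized counts), in M8 under vehicle in cKO organoids (259) and in M4 under vehicle in control organoids (361). Bmp4 was high in M12 under E2/MPA (35.2) and in M4 under vehicle (35.2), both in control organoids. These 5 are stroma-rich libraries. Bmpr1a was high in M14 in cKO organoids under E2/MPA (1508), and Bmp7 was low in M5 in cKO organoids under vehicle (1.12). Among the other genes, Bmp2 (144) and Tcf3 (1912) were high in M8 in cKO organoids under vehicle, and Pgr was low in M12 under E2/MPA (1252) and in M4 under vehicle (3205) in control organoids. The part of stromal transcripts in these values was not tested.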

How the results depend on the processing

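The 9 tested genes in 6 comparisons were recomputed in 32 settings. Of the differences obtained, 14 gained a call and none could lose one; 132 changed sign, all without a call. The number of the 9 passing for E2/MPA, 0 in cKO, 0 in control and 0 averaged over genotypes, became 2, 3 and 3 once the stromal marker mean entered as a covariate. Over all tested genes that setting called 2881, 4079 and 5815, against 692, 1469 and 3269 without it. A random block joining each library to the one 8 numbers on gave 1 in control (Smad6, -0.53, adjusted p = 0.0127) and 2 on average (Smad6, -0.37, adjusted p = 0.00919; Id1, -0.51, adjusted p = 0.0149). Leaving out each library in turn gave 0 to 1 in control and 0 to 1 on average. The labels give the groups no shared replicate numbers, so whether the libraries of a block come from 1 animal is unknown; the consensus correlation within a block was 0.496. With the 6 libraries of stromal mean over 7 left out (chosen after seeing the data), 0 passed in every comparison. The control groups then held only M10 and M11 under E2/MPA and M2 and M3 under vehicle. DESeq2 called 4 of the 53 other pathway genes in cKO and 13 in control, against 2 and 8 with limma. Over all tested genes DESeq2 called 1255 and 2175, against 692 and 1469 with limma. Calls over all genes moved more. They ranged from 361 (without M13) to 3098 (block) around 692 for E2/MPA in cKO, from 484 (only the groups compared) to 4479 (block) around 1469 in control and from 2572 (without M11) to 6351 (block) around 3269 on average. Genotype calls ranged from 0 to 1400 around 1 under E2/MPA and from 0 to 588 around 0 under vehicle, both highest without those 6 libraries, where the interaction reached 28 from 0. The share of calls that were higher under E2/MPA was 64.6%, 60.6% and 54.4% in cKO, in control and on average, against 54.7%, 48.5% and 43.3% with quantile normalization and 52.1%, 53.3% and 44.8% with upper-quartile scaling. Low reads limit Bmp4 and Bmp7 (191 and 103 reads).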
